A study of Mus musculus with 24 samples.

Results

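The genes described are 7 widely used targets of TGF-beta signalling: Ccn2, Ccn1, Tagln, Acta2, Pmepa1, Junb and Tgfbi. They were found on the array by symbol, with the older names Ctgf and Cyr61 for Ccn2 and Ccn1, out of 18193 genes with a symbol. A gene with several probe sets is given by the brightest of them, averaged over the 24 arrays. All 7 genes lay above the filter on dim signal, a log2 value of 6.07, on every one of the 24 arrays.

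TGF-beta ligands bind a pair of type II and type I receptors on the cell surface. The type I receptor ALK5, encoded by Tgfbr1, phosphorylates SMAD2 and SMAD3, which join SMAD4 and enter the nucleus to act on target genes. In the neural crest cells that form most of the jaw skeleton, this pathway is needed for the palate, the skull vault and the mandible.

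The knockout embryos came from Wnt1cre;Alk5fl/+ mice crossed with Alk5fl/fl mice, on a background labelled C57B6, at embryonic day 12.5. They were recognised by a cleft palate and a defect of the skull vault, and the controls were their littermates, whose alleles the labels do not give further. Mandible and maxilla were each divided into a proximal and a distal end. Each of these 4 parts was measured on 4 knockout arrays, numbered 1 to 4, and on 2 control arrays, numbered 1 and 2, which makes 16 knockout and 8 control arrays. Wnt1-driven Cre acts in the neural crest lineage, so epithelium, endothelium, blood and the muscle precursors from mesoderm keep the receptor gene. The labels do not say that arrays came from separate embryos, so the tests measure the spread between these samples, part of which may be technical.

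The arrays formed 3 sets by their technical control features: knockouts 1 and 2, knockouts 3 and 4, and control. The excess of 3′ over 5′ signal at the Gapdh and beta-actin control features, a sign of RNA or label quality, was 1.13 ± 0.28 log2 units in knockouts 1 and 2, 0.08 ± 0.06 in knockouts 3 and 4 and 0.18 ± 0.04 in control (SD over 8 arrays each). The hybridisation controls averaged 11.52 ± 0.32, 8.92 ± 0.16 and 10.42 ± 0.37 in the same 3 sets. By Xist, 4 of 8 arrays were female in each knockout set and 0 of 8 in the control set. An effect of array set cannot be told apart from one of genotype, so each knockout set is also given alone against the same control arrays. The bright probe set of Tgfbr1 read 12.07 to 12.64 in knockouts 1 and 2, 12.32 to 12.52 in knockouts 3 and 4 and 11.98 to 12.69 in control. The dimmer probe set 1420893_a_at was lower in both sets, by probe set tests at -1.62 ± 0.07 (adjusted p = 0.000181) in knockouts 1 and 2 and -0.82 ± 0.06 (adjusted p = 0.0372) in knockouts 3 and 4. The third, 1420894_at, differed by -1.93 ± 0.08 and by 0.60 ± 0.08 (adjusted p = 0.0536) in the same order. The 3 probe sets thus disagree, and the files do not say whether any of them lies in the deleted exon, so they check no label. Markers of neural crest mesenchyme were high, with means of 10.93, 11.27 and 11.24 in the 3 sets. Markers of the mandible were higher in the arrays labelled so: the mean of Hand2, Dlx5 and Dlx6 was 10.86 in knockout mandible and 8.32 in knockout maxilla, and 11.21 in control mandible and 9.03 in control maxilla.

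Some short promoter sequences bear on genes of this kind: CArG boxes bound by SRF, TEAD sites bound by partners of YAP, and the short element bound by SMAD proteins. Promoters of 4 of the 7 genes were in the RefSeq table (build GRCm38.p6), each read as the 250 bases before the start. The promoters of Acta2 and Ccn1 are shown because these were the genes with the widest differences between jaws and between the array sets. Capitals mark matches to the motifs searched on both strands.
Acta2, chr19:34255374-34255623, minus strand: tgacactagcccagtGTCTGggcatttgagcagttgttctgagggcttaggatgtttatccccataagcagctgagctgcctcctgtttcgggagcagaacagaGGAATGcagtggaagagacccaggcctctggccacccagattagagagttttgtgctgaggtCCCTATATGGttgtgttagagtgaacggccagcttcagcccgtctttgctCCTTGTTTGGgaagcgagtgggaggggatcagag
Ccn1, chr3:145649986-145650235, minus strand: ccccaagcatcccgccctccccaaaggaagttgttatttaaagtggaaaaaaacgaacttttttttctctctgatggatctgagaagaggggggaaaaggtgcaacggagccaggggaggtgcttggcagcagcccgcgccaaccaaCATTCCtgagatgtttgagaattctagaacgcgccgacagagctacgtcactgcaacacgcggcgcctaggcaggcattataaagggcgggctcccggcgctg

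The Acta2 window held 2 CArG boxes that each depart at 1 base of the core, at -84 to -75 and -34 to -25 from the start. It also held the TEAD motif GGAATG at -146 to -141 and the SMAD motif CAGAC, read on the other strand, at -235 to -231. The Ccn1 window held only the TEAD motif, on the other strand at -103 to -98. Of 32851 promoter windows of the same length, 7.24% held a CArG box with 1 departure, 12.6% the TEAD motif and 42.2% the SMAD motif. A match is a string of letters and not a measured site.

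Ccn2 and Ccn1 encode secreted matricellular proteins that bind integrins and matrix and are induced early by TGF-beta and by mechanical tension. Averaged over the 4 parts, Ccn2 read 8.97, 9.08, 9.87 and 9.99 in knockouts 1 to 4, against 10.65 and 10.27 in controls 1 and 2. All 4 knockout means lay below both control means. Over all parts the difference was -0.98 ± 0.35 (log2, SE), which is 1.97-fold lower, with an adjusted p of 0.706 (limma, over 13837 genes). In bulk tissue, fewer cells of a type and less RNA per cell cannot be told apart.

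**Figure D1:**
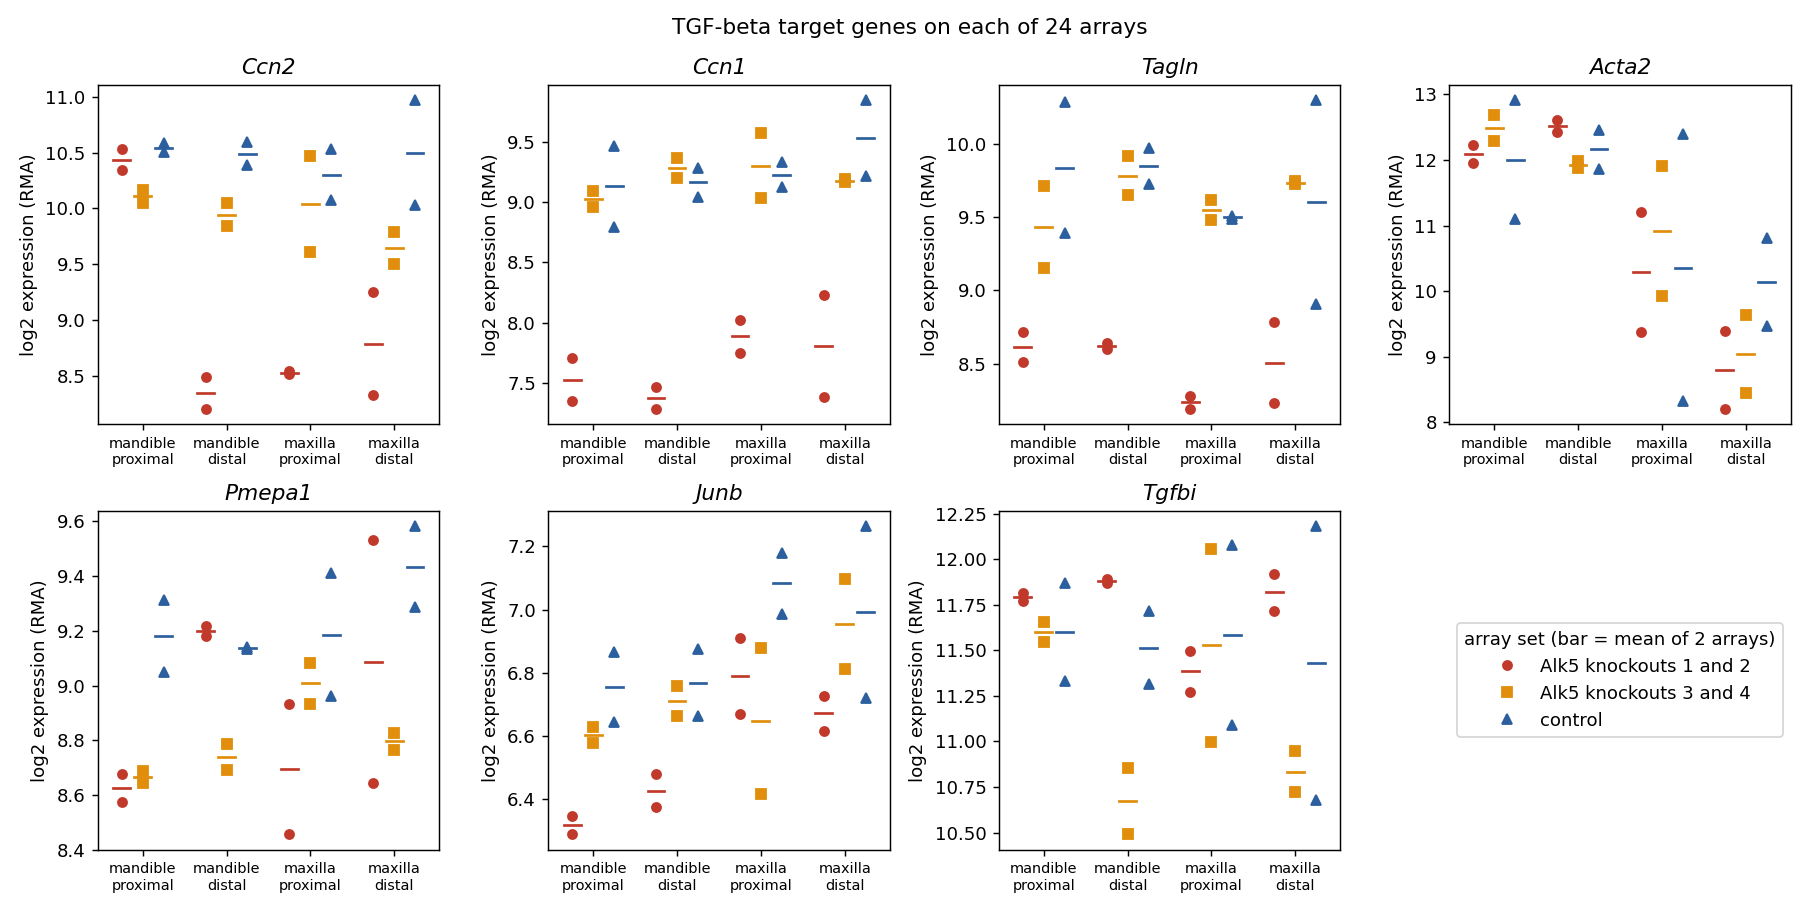
Log2 expression (RMA) of each gene on the 24 arrays, by part of the jaw; circles are knockouts 1 and 2, squares knockouts 3 and 4 and triangles control, with a bar at the mean of 2 arrays. Ccn1 and Tagln in knockouts 1 and 2 lay below both other sets in all 4 parts, while Acta2 varied most within the maxilla. In knockouts 1 and 2, 23.5% of all genes lay below control in all 4 parts.

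Over all parts, none of the 7 genes passed the test, and 0 of 13837 genes did (0% called). At an unadjusted p under 0.05 there were 2 of the 7 genes, Ccn2 and Pmepa1, and 965 of all genes (6.97%). The other differences over all parts were -0.84 ± 0.57 for Ccn1, -0.64 ± 0.42 for Tagln, -0.38 ± 0.11 for Pmepa1, -0.26 ± 0.12 for Junb and -0.09 ± 0.28 for Tgfbi, with adjusted p of 0.699 to 0.899. By the brightest probe sets, all 7 differences lay below 0, where 58.6% of all genes did. Their median was -0.38, where that of all genes was -0.05. The other probe sets of Tgfbi stood just above 0, at 0.010, 0.025 and 0.041, and 2 dim ones of Ccn1 at 0.27 and 0.31. Of the 7 genes 3, Ccn2, Pmepa1 and Junb, had all knockout means below both control means, as had 15.4% of all genes. With arrays centred on their medians, the median of all genes moved by 0.11 in this comparison and by 0.17 in knockouts 1 and 2. Over all parts, Tgfbi was the 1 of the 7 genes whose sign turned with this centring, to 0.015.

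In knockouts 1 and 2 alone, 4 of the 7 genes were lower than control past the threshold: Ccn1, Ccn2, Tagln and Junb. Of all genes 52.6% passed the same test and 31.7% passed as lower. At an unadjusted p under 0.05 there were 5 of the 7 genes and 59.2% of all genes. Of the 7 genes, 6 lay below 0, as did 55.9% of all genes, and 5 had both means below both control means, as did 45.4% of all genes. After centring, 4644 of all genes were higher and 3280 lower, in place of 2897 higher and 4382 lower. Knockouts 3 and 4 alone had 0 of the 7 genes past the threshold, where 1.56% of all genes passed (216 genes; limma) and 1.29% passed as lower. At an unadjusted p under 0.05 there were 2 of the 7 genes and 26.8% of all genes. All 7 lay below 0, as did 56.4% of all genes, and 3 (Ccn2, Pmepa1 and Junb) had both means below both control means, as did 34.7% of all genes.

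**Figure D2:**
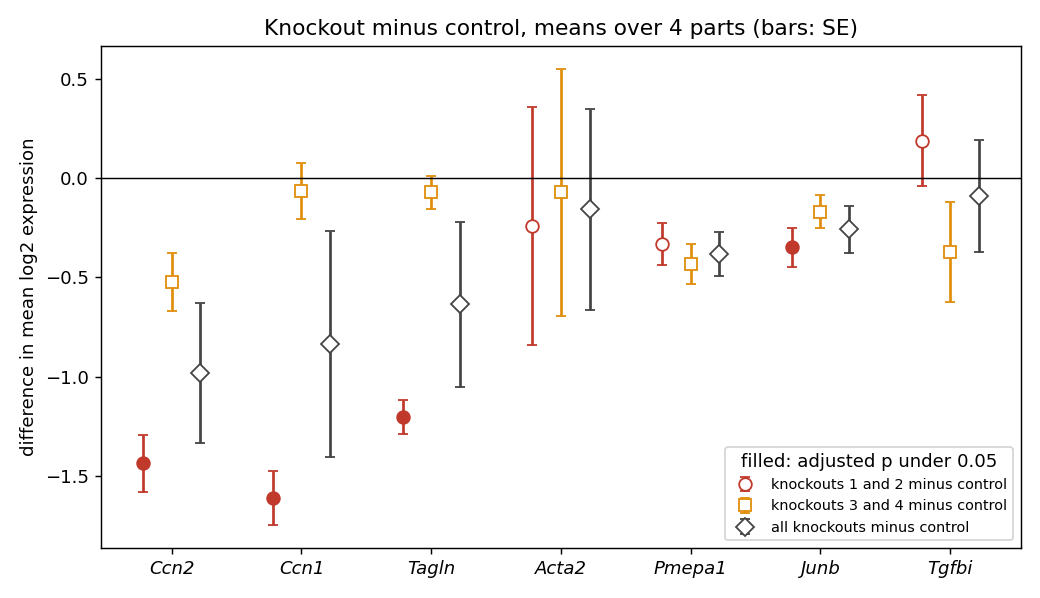
Difference in mean log2 expression, knockout minus control, for knockouts 1 and 2 (circles), knockouts 3 and 4 (squares) and all knockouts (diamonds), with SE bars and filled symbols at an adjusted p under 0.05. Ccn1 and Tagln stood at -1.61 and -1.20 in knockouts 1 and 2 and near 0 in knockouts 3 and 4, while Pmepa1 stood at -0.33 and -0.43.

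Ccn1 averaged 7.56 and 7.74 in knockouts 1 and 2 and 9.09 and 9.30 in knockouts 3 and 4, against 9.42 and 9.10 in the controls. All 8 arrays of knockouts 1 and 2 lay below all control arrays (highest 8.23, lowest control 8.79), while the means of knockouts 3 and 4 overlapped control. The share of all genes so separated was not counted. In this set 45.4% of all genes had both means below both control means. Both arrays lay below both control arrays in 4 of 4 parts for 23.5%. The difference was -1.61 ± 0.14 in knockouts 1 and 2, 3.05-fold lower (adjusted p = 0.00194), and -0.06 ± 0.14 in knockouts 3 and 4 (adjusted p = 0.794).

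Tagln encodes transgelin, an actin-binding protein of smooth muscle and of fibroblasts under tension. It averaged 8.42 and 8.57 in knockouts 1 and 2 and 9.71 and 9.53 in knockouts 3 and 4, against 9.66 and 9.73 in the controls. Its single arrays ran from 8.19 to 8.79 in knockouts 1 and 2 and from 9.15 to 9.92 in knockouts 3 and 4, against 8.91 to 10.30 in control. As with Ccn1, knockouts 1 and 2 lay apart and knockouts 3 and 4 overlapped control. The means of knockouts 1 and 2 lay below both control means for 45.4% of all genes. Tagln fell by 1.20 ± 0.09 on the log2 scale, 2.30-fold, in knockouts 1 and 2 (adjusted p = 0.00168), and differed by -0.07 ± 0.08 in knockouts 3 and 4 (adjusted p = 0.603).

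Set directly against knockouts 3 and 4, a comparison added after the data were seen, knockouts 1 and 2 had lower Ccn1 (-1.55 ± 0.11, adjusted p = 0.000212), Tagln (-1.13 ± 0.10, adjusted p = 0.000348) and Ccn2 (-0.91 ± 0.08, adjusted p = 0.000376). Tgfbi was higher, by 0.56 ± 0.11 (adjusted p = 0.00576). Of all genes 64.9% passed between these arrays of the same labelled genotype. Pmepa1 (0.10 ± 0.07) and Junb (-0.18 ± 0.08) did not pass here. Pmepa1 passed as higher after centring or quantile normalization, at 0.22 and 0.23. Beside this, erythroid markers averaged 12.80, 10.81 and 11.33 in knockouts 1 and 2, knockouts 3 and 4 and control, and endothelial markers 8.43, 9.19 and 9.30. Smooth muscle and pericyte markers averaged 7.99, 8.50 and 8.72, with Myh11 below the filter on all arrays. Epithelial markers averaged 10.85, 10.84 and 10.42, with 3 of 7 called higher in knockouts 1 and 2 and 0 in knockouts 3 and 4, and macrophage markers 7.94, 8.35 and 7.94. Neuronal markers averaged 8.07, 8.24 and 8.87. Their median differences from control were -0.56 and -0.54 in the 2 knockout sets, with 2 of 6 called lower in knockouts 1 and 2. Also called there were 5 of 5 erythroid markers as higher, and of 7 endothelial markers 6 as lower and 1 as higher. Of 6 smooth muscle and pericyte markers 4 were lower and 1 higher, and of 6 macrophage markers 1 lower and 2 higher. Of all genes 31.7% were called lower and 20.9% higher there. The part of these cells in the values of the 7 genes was not tested.

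Ccn2 differed from control in both sets in the same direction. In knockouts 1 and 2 the difference was -1.44 ± 0.14, 2.71-fold lower, and it passed (adjusted p = 0.00252). For knockouts 3 and 4 it was -0.53 ± 0.15, which did not pass (adjusted p = 0.130). With the 3′ excess as a covariate, the difference over all parts was -0.61 ± 0.12 for Ccn2, -0.42 ± 0.09 for Pmepa1 and -0.21 ± 0.11 for Ccn1. None of the 3 passed (adjusted p = 0.053, 0.057 and 0.293), while 679 of all genes did. The 3′ excess averaged 1.13 in knockouts 1 and 2, 0.08 in knockouts 3 and 4 and 0.18 in control. As a covariate it thus nearly marks knockouts 1 and 2, and the fit rests mostly on knockouts 3 and 4 against control. It gives no difference over all knockouts corrected for RNA quality.

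Pmepa1 encodes a membrane protein that binds SMAD2 and SMAD3 and damps the pathway that induces it. By its brightest probe set it averaged 8.94, 8.87, 8.79 and 8.81 in knockouts 1 to 4, against 9.36 and 9.11 in the controls. All 4 knockout means lay below both control means. The difference was -0.33 ± 0.11 in knockouts 1 and 2 (adjusted p = 0.054) and -0.43 ± 0.10 in knockouts 3 and 4 (adjusted p = 0.104). In the limma fit over all probe sets, this probe set, 1422706_at, passed in knockouts 1 and 2 (adjusted p = 0.045). That call was lost after centring (adjusted p = 0.072) and after quantile normalization (adjusted p = 0.128).

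Of the other probe sets of Pmepa1, 1452295_at read a larger difference in both sets and 1422705_at in knockouts 3 and 4. The probe set 1452295_at averaged 7.03 ± 0.27 in knockouts 1 and 2 and 6.996 ± 0.203 in knockouts 3 and 4, against 7.85 ± 0.18 in control (SD over 8 arrays each). Its highest knockout array read 7.42 and its lowest control array 7.67, so that all 16 knockout arrays lay below all 8 control arrays. Of 30399 probe sets kept, 227 (0.747%) were so separated, and this was the 1 that was, of 15 probe sets of the 7 genes above the filter.

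For this probe set the difference was -0.82 ± 0.08 in knockouts 1 and 2 (adjusted p = 0.000743 over all probe sets) and -0.86 ± 0.06 in knockouts 3 and 4 (adjusted p = 0.037). Probe set 1422705_at gave -0.28 ± 0.16 in knockouts 1 and 2 (adjusted p = 0.182) and -0.87 ± 0.07 in knockouts 3 and 4 (adjusted p = 0.040). Both passed in knockouts 3 and 4, where 1.38% of probe sets did and 0.954% as lower, but neither passed there once any of the 4 replicates was left out (adjusted p of 0.067 to 0.205 for each). Over all parts, 1452295_at differed by -0.84 ± 0.09 (adjusted p = 0.421, with 4 knockout and 2 control means). These probe sets were singled out after their values were seen.

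**Figure D3:**
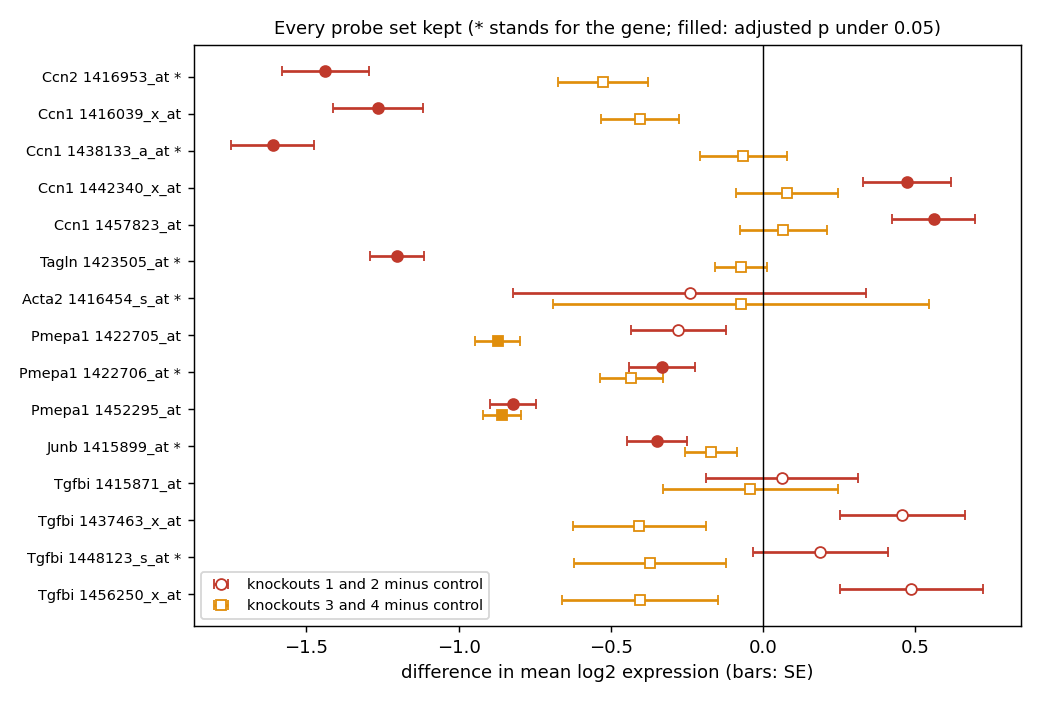
Difference in mean log2 expression against control, with SE bars, for the 15 probe sets of the 7 genes above the filter; circles are knockouts 1 and 2, squares knockouts 3 and 4, filled where the adjusted p over all probe sets is under 0.05. The 3 Pmepa1 probe sets lay below 0 in both sets, and the 4 Ccn1 probe sets disagreed in sign.

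Of the 15 probe sets, 7 were lower and 2 higher past the threshold in knockouts 1 and 2, where 60.5% of all probe sets passed, 31.4% as lower and 29.1% as higher. The 2 higher ones belong to Ccn1: 1442340_x_at at 0.47 ± 0.14 (adjusted p = 0.039) and 1457823_at at 0.56 ± 0.14 (adjusted p = 0.018). They were dim, at 6.62 and 6.23 in control, whereas the second bright Ccn1 probe set, 1416039_x_at, differed by -1.26 ± 0.15 in the same arrays (adjusted p = 0.00154). Both higher calls were lost without knockout 1 or knockout 2. The fall of Ccn1 thus rests on its 2 bright probe sets, which in knockouts 3 and 4 stood at -0.06 ± 0.14 and -0.40 ± 0.13. By the mean of its 4 probe sets it stood at -0.46 ± 0.13 in knockouts 1 and 2 (adjusted p = 0.0321), in place of -1.61.

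Junb encodes an AP-1 transcription factor that SMAD proteins induce directly. It averaged 6.62, 6.49, 6.70 and 6.76 in knockouts 1 to 4, against 6.81 and 6.99 in the controls. The means did not overlap, but they lay close together and near the filter. The difference was -0.35 ± 0.10 in knockouts 1 and 2, 1.27-fold lower (adjusted p = 0.037), and -0.17 ± 0.08 in knockouts 3 and 4 (adjusted p = 0.271). In knockouts 1 and 2 the call was lost after centring (-0.18 ± 0.11, adjusted p = 0.216) and after quantile normalization (-0.24 ± 0.10, adjusted p = 0.110), without control 2, knockout 1 or knockout 2, and with a variance trend.

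Tgfbi encodes a secreted adhesion protein of the matrix that carries fasciclin domains. It averaged 11.66 and 11.78 in knockouts 1 and 2 and 11.02 and 11.29 in knockouts 3 and 4, against 11.86 and 11.20 in the controls. Both knockout sets overlapped the controls, on either side of their mean. The difference was 0.19 ± 0.23 in knockouts 1 and 2 (adjusted p = 0.5259) and -0.37 ± 0.25 in knockouts 3 and 4 (adjusted p = 0.392). By the other probe sets of Tgfbi it was 0.06, 0.46 and 0.49 in knockouts 1 and 2. In knockouts 3 and 4 they gave -0.04, -0.41 and -0.40, and none passed in either set. By the brightest probe set, the control arrays of the distal maxilla alone read 12.18 and 10.68.

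In the single parts, none of the 7 genes passed for knockout against control, and 0, 2, 1 and 1 of all genes did in the mandible's proximal and distal ends and the maxilla's proximal and distal ends (0%, 0.0145%, 0.00723% and 0.00723%; limma). Counts at an unadjusted p under 0.05 were 1, 1, 0 and 2 of the 7 genes, and 7.65%, 9.86%, 6.35% and 4.89% of all genes. All knockout arrays lay below both control arrays for Pmepa1 and Junb in the proximal mandible (13.2% of all genes), Ccn2 in the distal mandible (16.3%), Junb in the proximal maxilla (6.43%), and Ccn2 and Ccn1 in the distal maxilla (10.7%). In the distal mandible Ccn2 read 8.49, 8.20, 10.05 and 9.84 in knockouts 1 to 4, against 10.59 and 10.39 in the controls. Knockouts 1 and 2 were thus far below and knockouts 3 and 4 slightly below, with no overlap. The difference was -1.35 ± 0.55 (adjusted p = 0.446). It was -1.02 ± 0.55 for Ccn2 in the proximal and -1.28 ± 0.55 in the distal maxilla. Ccn1 differed by -0.85 ± 0.67 in the proximal mandible, -0.83 ± 0.67 in the distal mandible and -1.03 ± 0.67 in the distal maxilla. Tagln differed by -0.81 ± 0.54, -0.65 ± 0.54 and -0.61 ± 0.54 in the proximal mandible, distal mandible and proximal maxilla. These genes spread widely between the array sets within each part. Pmepa1 differed by -0.54 ± 0.22 in the proximal mandible, -0.33 ± 0.22 in the proximal maxilla and -0.49 ± 0.22 in the distal maxilla, and Junb by -0.36 ± 0.18 in the proximal maxilla. Acta2 differed by -1.22 ± 0.84 in the distal maxilla.

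In the proximal mandible Ccn2 read 10.53, 10.34, 10.05 and 10.16 in knockouts 1 to 4, against 10.51 and 10.59 in the controls. It read 8.54, 8.51, 9.61 and 10.47 in the knockout proximal maxilla, against 10.53 and 10.08 in control. In the distal maxilla it read 8.33, 9.25, 9.79 and 9.50 in the knockouts, against 10.97 and 10.03 in control. Knockouts 1 and 2 were thus low in 3 parts and overlapped control in the proximal mandible. By contrast, Ccn1 and Tagln had both arrays of knockouts 1 and 2 below both control arrays in 4 of 4 parts, as did 23.5% of all genes. Ccn2 and Junb did so in 3 parts (32.9% of all genes did in at least 3), and Pmepa1 in 2 (42.8% in at least 2). Pmepa1 was above both control arrays in 1 part, as was Tgfbi, and Acta2 was below in 1. The same held in knockouts 3 and 4 for Ccn2 and Pmepa1 in 3 parts each (16.8% of all genes in at least 3), Junb in 2 (31.6% in at least 2), Ccn1 and Tgfbi in 1 (54.1% in at least 1), and Tagln and Acta2 in 0.

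Within knockouts 1 and 2 alone, Ccn2 differed by -2.09 ± 0.33 in the distal against the proximal mandible, 4.26-fold lower (adjusted p = 0.00614). This contrast was chosen after the values were seen. Of all genes 1.03% passed it and 0.52% as lower, and Ccn2 did not without knockout 1 (adjusted p = 0.104). In their maxilla no difference between the ends passed for Ccn2 (adjusted p = 0.886), and the difference between the jaws in this respect was -2.35 ± 0.46 and did not pass (adjusted p = 0.062). Over all knockouts, distal less proximal was -0.60 ± 0.16 for Ccn2 (adjusted p = 0.157), where 0.463% of all genes passed. It was -0.88 ± 0.53 for Acta2, -0.27 ± 0.21 for Tgfbi, 0.21 ± 0.11 for Pmepa1, 0.20 ± 0.18 for Tagln, 0.10 ± 0.09 for Junb and -0.02 ± 0.14 for Ccn1, and none of the 7 passed. In the controls, 0 of the 7 genes and 0 of all genes passed between the ends (0%; limma), and 0 of the 7 and 149 of all genes had an unadjusted p under 0.05. The control mandibles differed between their ends in opposite directions. Acta2 read 12.91 proximal and 11.86 distal in control 1, and 11.10 and 12.46 in control 2. The mean of the skeletal muscle markers read 11.41 and 10.06, and 9.42 and 10.92, in the same order. The cause was not tested, and no marker checked the labels of the ends. The single parts of the mandible use these same control arrays.

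Whether the difference between genotypes itself varied with jaw or with end was tested as an interaction. None of the 7 genes and 0 of all genes passed for either (0% each; limma). At an unadjusted p under 0.05 there were 0 of the 7 genes and 107 and 157 of all genes (0.773% and 1.13%). Unlike the tests of jaws and ends, this fit left the difference between the knockout sets in the spread. It could therefore miss differences, and no conclusion is drawn from it.

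Acta2 encodes alpha smooth muscle actin, found in vessel walls and myofibroblasts and, in the embryo, transiently in early skeletal and heart muscle. It was the gene of the 7 with the widest range over the arrays. Its arrays read from 11.88 to 12.68 in knockout mandible and from 8.21 to 11.91 in knockout maxilla. In control they read 12.91, 11.10, 11.86 and 12.46 in the mandible and 12.39, 8.33, 10.81 and 9.47 in the maxilla. In the knockouts the highest maxilla array just exceeded the lowest mandible array, and in control the jaws overlapped widely, through the proximal maxilla of control 1.

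In the knockouts Acta2 was higher in mandible than maxilla by 2.49 ± 0.53, 5.62-fold (adjusted p = 0.011), the 1 of 7 genes to pass where 7.71% of all genes did and 3.34% as higher. At an unadjusted p under 0.05 there were 3 of the 7 genes, Acta2, Ccn2 and Junb, and 22.4% of all genes. Ccn2 differed by 0.46 ± 0.16 and Junb by -0.25 ± 0.09 (adjusted p = 0.104 each). Mandible less maxilla was -0.24 ± 0.14 for Ccn1, 0.10 ± 0.18 for Tagln, -0.09 ± 0.11 for Pmepa1 and 0.10 ± 0.21 for Tgfbi, and none of these passed. The Acta2 call was lost without any one of the 4 knockout replicates, with differences of 2.06 to 2.92 and adjusted p of 0.062 to 0.228. In controls the difference was 1.83 ± 0.75 and did not pass (adjusted p = 0.344), where 0.687% of all genes passed, and Junb differed by -0.28 ± 0.13 (adjusted p = 0.424). Between genotypes Acta2 differed by -0.16 ± 0.51 over all parts (adjusted p = 0.905), and by -0.24 ± 0.60 and -0.07 ± 0.62 in knockouts 1 and 2 and in knockouts 3 and 4, where leaving out control 1 turned the sign in all 3.

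Skeletal muscle markers moved with Acta2. The mean of 8 of them, Myod1, Myog and Myf5 among them, was 10.21 ± 0.60 in knockout mandible and 7.47 ± 1.47 in knockout maxilla, and 10.45 ± 0.89 in control mandible and 8.21 ± 2.22 in control maxilla (SD over 8 and 4 arrays). All 8 were above the filter, 8 of 8 differences lay above 0 in both genotypes, and 5 of 8 passed in the knockouts and 0 in control (limma; 5 at an unadjusted p under 0.05). The proximal maxilla of control 1, which had the highest Acta2 of any maxilla array (12.39), also had the highest muscle mean there. The proximal maxilla of control 2 read 8.33 for Acta2 and 6.31 for the muscle mean. Of 7 smooth muscle and pericyte markers, Myh11, which defines mature smooth muscle, was below the filter on all arrays and 6 were above it. After each array set's mean was subtracted, Acta2 correlated with the mean of these markers (Pearson r = 0.58) and with that of the skeletal muscle markers (0.96). The part of muscle cells in the Acta2 values was not tested.

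**Figure D4:**
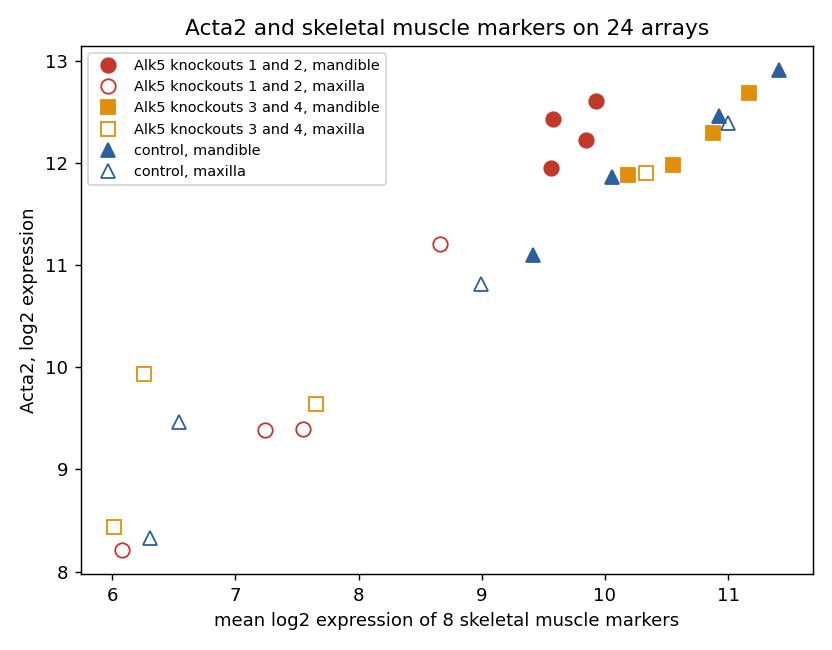
Acta2 (log2 expression) against the mean of 8 skeletal muscle markers on 24 arrays; filled symbols are mandible and open ones maxilla. The arrays rise together from the low maxilla arrays at lower left to the mandible arrays at upper right, in both genotypes.

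The Acta2 values come from 1416454_s_at and those of Tgfbi from 1448123_s_at. Names ending in _s_at mark probes shared between transcripts. Related actins may thus be part of the Acta2 values, which was not checked. The other probe sets of Acta2 were below the filter on all arrays, with means of 4.07 to 4.37 over the array sets.

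After each array set's mean was subtracted, the 3 genes most like Acta2 over the 24 arrays were Tnnt1 (Pearson r = 0.98), Neb (0.98) and Myf5 (0.97), parts of the sarcomere and a myogenic factor. For Ccn2 they were the collagen genes Col8a2 (0.89) and Col12a1 (0.83), and Abhd15 (0.88). For Ccn1 they were Tspan12 (0.81), Plscr1 (0.81) and Atp2c1 (0.78), and for Tagln Ehd2 (0.74), Madcam1 (0.73) and Chst3 (0.72). For Pmepa1 they were Bace1 (0.85), Cds2 (0.82) and Tgoln1 (0.80), for Junb Nrarp (0.89), Tspan11 (0.83) and Nxpe3 (0.82), and for Tgfbi Plcxd3 (0.92), Tmem86a (0.91) and Marchf8 (0.89). None of the 7 genes was among another's 3 nearest. These are descriptions of arrays that share parts and dissections.

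Other genes of the pathway were read from lists. Of 24 other TGF-beta and SMAD targets, 21 were above the filter. In knockouts 1 and 2, 14 were lower and 1 higher past the threshold, where 31.7% of all genes were lower and 20.9% higher. Their median was -0.62, beside -0.06 for all genes. For knockouts 3 and 4, 1 was lower (1.29% of all genes), with a median of -0.10 beside -0.03. Over all parts 0 passed, with a median of -0.34 (limma; 4 at an unadjusted p under 0.05, where 6.97% of all genes were).

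The gene that was lower in both sets was Tgfb1i1, which encodes Hic-5, a focal adhesion partner of paxillin's family. It differed by -0.89 ± 0.07 in knockouts 1 and 2 (adjusted p = 0.00185) and by -0.55 ± 0.06 in knockouts 3 and 4 (adjusted p = 0.049). The second call lay at the threshold, and whether Tgfb1i1 kept it under other scalings is not given. In knockouts 3 and 4 the 216 genes called became 83 after centring and 76 after quantile normalization. Snai1, a transcription factor of epithelial to mesenchymal transition, differed by -0.62 ± 0.21 and -0.86 ± 0.21 in the same order and passed in neither. Timp3, an inhibitor of matrix metalloproteinases, differed by -1.04 ± 0.10 (adjusted p = 0.00256) and -0.51 ± 0.11 (adjusted p = 0.098). Eln, the elastin gene, differed by -2.56 ± 0.11 (adjusted p = 0.00148) and -0.76 ± 0.11 (adjusted p = 0.062). The 1 target that was higher in knockouts 1 and 2 was Hmga2, at 0.55 ± 0.07 (adjusted p = 0.00411).

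Of the rest of the CCN family, 3 of 4 genes were above the filter. Lower in knockouts 1 and 2 were Ccn4 (-1.59 ± 0.16, adjusted p = 0.00245) and Ccn3 (-1.52 ± 0.15, adjusted p = 0.00254), as were Ccn1 and Ccn2. None passed in knockouts 3 and 4 (limma; 1 at an unadjusted p under 0.05), and Ccn4 stood at -0.62 ± 0.14 (adjusted p = 0.101).

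Of 18 actin and smooth muscle genes, 16 were above the filter, and in knockouts 1 and 2 they were split, 4 lower and 4 higher, where 31.7% of all genes were lower and 20.9% higher. Lower were Tpm1 (-2.09 ± 0.15), Myl9 (-1.12 ± 0.14), Vcl (-0.45 ± 0.08) and Smtn (-0.26 ± 0.07), which encode a tropomyosin, a myosin light chain, vinculin and smoothelin. Higher were Tpm2 (0.61 ± 0.11), Mrtfa (0.59 ± 0.07), Srf (0.34 ± 0.08) and Cnn2 (0.34 ± 0.07). The 1 gene to pass in knockouts 3 and 4 was Mrtfa, a coactivator of SRF, and it was lower there (-0.55 ± 0.06, adjusted p = 0.049), opposite to its direction in the other set. Like that of Tgfb1i1, this call lay at the threshold and has the same limit.

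Of 15 genes regulated by YAP and TEAD, Fjx1 (-0.51 ± 0.11), Axl (-2.21 ± 0.09) and Amotl2 (-0.39 ± 0.08) were lower and Wwc1 (0.64 ± 0.09) higher in knockouts 1 and 2, where 31.7% of all genes were lower and 20.9% higher. None passed in knockouts 3 and 4 (limma; 5 at an unadjusted p under 0.05, where 26.8% of all genes were). Of 18 immediate early genes, which respond within minutes to handling as well as to growth factors, 16 were above the filter. Of these, 10 were lower and 2, Ier2 and Jund, higher in knockouts 1 and 2, where 31.7% of all genes were lower and 20.9% higher. Their median was -0.84. None passed in knockouts 3 and 4 (limma; 5 at an unadjusted p under 0.05), with a median of -0.09. Among them Klf2 differed by -1.32 ± 0.11 and -0.55 ± 0.08 in the 2 sets, Myc by -1.35 ± 0.07 and -0.33 ± 0.05, Nr4a1 by -0.40 ± 0.07 and -0.19 ± 0.06, and Ier2 by 0.66 ± 0.07 and 0.23 ± 0.08. Both sets share the control arrays, so their differences are not independent.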

How the data were processed

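Affymetrix Mouse430_2 arrays measured total RNA from 4 parts of the embryonic jaws, per the labels' protocols. The authors deposited RMA values on the log2 scale for every probe set (the method is named in the submitters' processing notes). Its version is not given in the sources used here. Precision is limited by the number of arrays.

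Of 45101 probe sets, 64 control features were left out of tests, 34945 carried 1 symbol, 932 several and 9160 none. Of 18193 genes, 13837 lay above the 40th percentile of all values on at least 2 arrays. Linear models were fitted in R 4.3.3 with limma 3.58.1 and moderated by eBayes with no trend. Tests were 2-sided, adjusted by Benjamini and Hochberg's method across all genes kept, with a threshold of 0.05. Comparisons over all parts and by array set used means over the 4 parts. Single parts and interactions came from a fit of 8 groups, and jaws and ends from a fit of 12 groups of array set and part. The fits were tested on simulated data with independent noise. Apart from the changes put in, the array sets did not differ there. These runs therefore do not cover the spread between array sets seen in the data. No 2 arrays were duplicates (highest correlation 0.995).

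The 7 genes, the gene lists and the markers were chosen with earlier results of these data known. The rule was to name all 7 genes in every comparison. Departing from it, differences smaller than their SE in the single parts, in controls and between knockout sets are left out, interactions and ends within an array set are mostly given as counts, and some part values are left out. Of each list the genes named are up to 4 with the smallest p over all parts, and those in small counts. Alternatives were scaling, the filter, the mean of all probe sets, a variance trend, replicates left out, replicate numbers, RNA quality, sex and array set.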

Additional observations from a re-analysis of the deposited data

How the results depend on the processing

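The precision is limited by 2 control numbers and by array sets that coincide with genotype. Of the compared values given for the 7 genes, the falls of Ccn2, Ccn1 and Tagln in knockouts 1 and 2 kept their direction. They stayed past the threshold under every alternative run for this comparison, though Ccn1 shrank to -0.46 with the mean of all probe sets. RNA quality, sex and array set as a random block were not among these alternatives. The 3′ excess averaged 1.13 in knockouts 1 and 2 and 0.18 in control, so its effect cannot be told apart here. Leaving out replicates moved the number of the 7 genes called from 3 to 5 in knockouts 1 and 2, from 0 to 3 in knockouts 3 and 4 (3 without control 2), from 0 to 1 between jaws in knockouts and in controls, from 0 to 2 between ends in knockouts (2 without knockout 2) and from 0 to 1 between the ends of the mandible in knockouts 1 and 2. With the mean of all probe sets, 1 gene, Pmepa1, passed in knockouts 3 and 4 (-0.72 ± 0.07, adjusted p = 0.042), Ccn1 became 0.0073 in the distal mandible, and Ccn1 between ends in knockouts became 0.18. Of 56 group levels, 26 moved by more than 1 SD with that mean.

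The labels do not say that replicate numbers pair the samples. Between parts with the same number, deviations correlated at 0.066 to 0.349 in knockouts 3 and 4, where 0 of 4 arrays numbered 3 and 4 of 4 numbered 4 were female, and at -0.68 to 0.58 in control. In knockouts 1 and 2 the proximal maxilla, whose arrays have the opposite sex to the other parts of their number, correlated at -0.31 to -0.14 with them, and the other parts at 0.15 to 0.22. Pairing within knockouts is thus a hint from the data and not from the design. With a replicate block the jaw and end comparisons kept 1, 0, 0 and 0 of the 7 genes called (Acta2 between jaws in knockouts, adjusted p = 0.00649). With this block, 3 of the 7 and 6393 of all genes passed over all parts, where Tgfbi became 0.19. In the proximal mandible 2 and 5981 passed, and in each other part 3 and 4987 to 6709. Knockouts 3 and 4 share no number with a control, so by construction this block compares knockouts 1 and 2 with control. Knockout 1 and control 1 correlated at -0.30. With numbers crossed for that reason, 5 of the 7 and 7373 of all genes passed in knockouts 1 and 2.

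Tgfbi turned to 0.015 over all parts after centring, and without a replicate it ran from -0.42 to 0.24 over all parts and from -0.14 to 0.52 in knockouts 1 and 2. Other ranges that crossed 0 when a replicate was left out were -0.98 to 0.67 for Acta2 over all parts, -1.07 to 0.59 in knockouts 1 and 2 and -0.90 to 0.75 in knockouts 3 and 4. In knockouts 3 and 4 they were -0.22 to 0.095 for Ccn1 and -0.16 to 0.017 for Tagln. Between jaws Tagln ran from -0.012 to 0.22 in knockouts and from -0.35 to 0.93 in controls, Ccn1 between ends in knockouts from -0.10 to 0.051, and Junb in the distal maxilla from -0.45 to 0.092. The cause was not tested. Another 40 differences of the 7 genes, each smaller than its SE and not given by value, changed sign in 30 cases, and 2 passed under some alternative.

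Over all parts 0 of all genes passed, but 679 with RNA quality as a covariate, which nearly marks knockouts 1 and 2. With array set as a random block (correlation 0.888) or sex as a covariate, 0 of the 7 genes passed. In knockouts 3 and 4 the 216 became 83 after centring, 76 after quantile normalization, 746 with a variance trend, 642 in a fit of all 6 means and 0 to 1378 without a replicate. In knockouts 1 and 2 the 7279 became 4038 without knockout 1. Between jaws in knockouts the 1067 became 326 with 8 groups and 150 to 1579 without a replicate, and between ends the 64 became 42 with the mean of all probe sets, 5 with 8 groups and 2 to 1554 without a replicate. Between jaws in controls the 95 became 25 with 8 groups and 13 to 395 without a replicate.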
